A study of Ambystoma mexicanum with 49 samples.

Results

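The HOXB genes are the axolotl genes of the deposited expression tables whose names consist of HOXB and a number. There were 10 of them among the 15631 genes listed: HOXB1, HOXB2, HOXB3, HOXB4, HOXB5, HOXB6, HOXB7, HOXB8, HOXB9 and HOXB13. Axolotl (Ambystoma mexicanum, a salamander) embryos were freed of their jelly and collected at 20 °C, and poly(A) RNA of 49 single embryos from 17 stages was sequenced. The stages were 1, 2, 3, 4, 5, 6, 7, 8, 9, 10, 11, 12, 14, 16, 19, 24 and 40, with 3 embryos each except stages 1 and 11, which had 2. Stages up to 8 are cleavage and blastula stages, stages 10 to 12 gastrulae, stages 14 to 19 neurulae, stage 24 an early tail bud embryo and stage 40 an embryo near hatching. The labels name no genotype, strain or sex, and no embryo was labelled as treated. A further 5 libraries, of stages 1 (2 libraries) and 2 (3 libraries), held total RNA depleted of ribosomal RNA. A level below is the authors' TPM, a measure of transcript abundance scaled for the depth of each library and for gene length. A whole embryo was used for each library, so fewer cells of a type and less RNA per cell cannot be told apart.

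HOX genes encode homeodomain transcription factors that give cells along the head-to-tail axis their position. They lie in clusters, and in vertebrates low-numbered members are in general activated earlier and further forward than high-numbered ones, an order known as collinearity. Low-numbered members act in the hindbrain, middle ones in the neck and trunk, and the highest in the tail. Retinoic acid, WNT and FGF signals activate the clusters, CDX factors relay some of these signals, and HOX proteins bind DNA together with partners of the TALE class (PBX, MEIS and PKNOX). The question for the HOXB genes was when each came on, and whether that order followed the paralog number, which is the number in the gene's name.

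In a RefSeq table of assembly UKY_AmexF1_1, all 10 names were found on 1 chromosome. The order there was TTLL6, HOXB13, HOXB9, HOXB8, HOXB7, HOXB3, HOXB6, HOXB5, HOXB4, HOXB2, HOXB1 and SKAP1, sorted by the start of each gene model. TTLL6 and SKAP1 also flank the cluster in humans. No other named protein-coding gene lay inside it. The model of HOXB3 overlaps those of HOXB4, HOXB5 and HOXB6. The authors' reference is not given, and whether reads were counted by strand is not stated in the labels. Whether reads were shared among these 4 genes is therefore not known.

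The HOXB genes were at or near 0 through cleavage, blastula and early gastrula stages. In the 23 libraries of stages 1 to 8, 148 of the 230 values were at 0 counts, and the highest was 14 counts. Only 3 values reached 1 TPM there, all of HOXB1, at 1.96 TPM in a stage 1 embryo, 1.12 TPM in a stage 5 embryo and 1.25 TPM in a stage 8 embryo. HOXB9 had 0 counts in all 23 libraries. In the 8 libraries of stages 9 to 11, 2 of 80 values reached 1 TPM, again of HOXB1, at 1.11 TPM in a stage 9 embryo and 1.51 TPM in a stage 11 embryo. HOXB1 was at 0 counts in 15 of the 23 libraries of stages 1 to 8 and in 6 of these 8. Between stages 8 and 1, 59.9% of 14437 genes tested were called (edgeR's quasi-likelihood test, Benjamini-Hochberg adjusted p under 0.05). Of the 10 HOXB genes, 0 were called, and their unadjusted p was under 0.05 in 0 cases. All 10 passed the filter on low counts, but it was applied once over all stages, later ones with high HOXB levels included. At stage 8 the highest HOXB sum over the embryos was 27.98 counts, of HOXB8, and HOXB9 had 0 counts at both stages. In steps between neighbouring stages, 15.8% of genes were called between stages 9 and 8, 3.72% between 10 and 9 and 0.0554% between 11 and 10, with 0 HOXB genes called at each. Unadjusted p values under 0.05 were found for 0, 0 and 2 HOXB genes in these steps, the 2 being HOXB1 and HOXB2 between stages 11 and 10. They rested on few counts, 9.55 at stage 11 against 0 at stage 10 for HOXB1 and 20 against 5 for HOXB2. The share of all genes at that unadjusted threshold is not given. The DESeq2 Wald test also called 0 HOXB genes in these 4 comparisons. With so few HOXB reads at these stages, the tests could have missed a change. The lack of calls is therefore not evidence that HOXB levels stayed the same, even beside the shares of all genes called.

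Stage 12, the late gastrula, was the first stage at which HOXB genes held 1 TPM or more in every embryo, and these were the 3 with the lowest numbers. Onset was taken as the first stage after stage 8 at which every library held 1 TPM or more. HOXB1, HOXB2 and HOXB3 had their onset at stage 12, and the other 7 at stage 14, the early neurula. Onset stage and paralog number had a Spearman rho of 0.798 over the 10 genes, which is given as a description: the onsets take only 2 values and the genes share their libraries. With single embryos in place of stages, by replicate number, rho was 0.543, 0.798 and 0.624. Replicate numbers were not taken to link embryos of different stages, and replicate 1 has no stage 11 library. These values are thus no measure of the spread of rho. In replicates 1 and 3 HOXB1 first passed 1 TPM at stages 9 and 11, on only 8.4 and 9.55 counts. These 2 rho values thus include an early HOXB1 onset near the floor. They also include later members that passed 1 TPM at stage 12. In replicate 1 these were HOXB5, HOXB7 and HOXB9, at 1.80, 1.51 and 1.34 TPM. In replicate 3 they were HOXB5, HOXB6, HOXB7 and HOXB8, at 2.92, 1.30, 1.37 and 1.17 TPM. Of these, HOXB9 rested on 6 counts and HOXB6 on 6.99. HOXB13, the highest-numbered member, had its onset at the same stage as HOXB4.

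**Figure D1:**
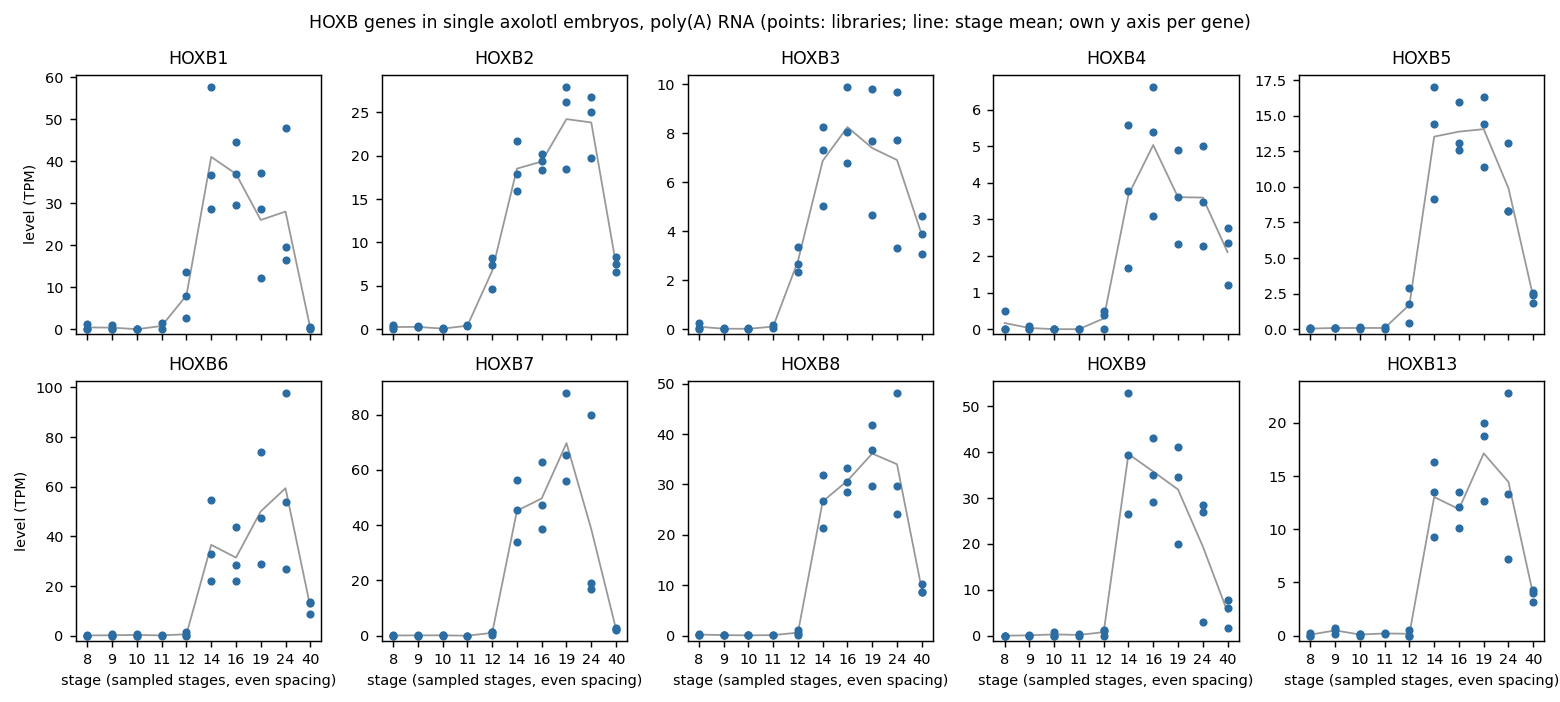
Level of each HOXB gene in TPM (vertical axis, own scale for each gene) at the stages from 8 to 40 (horizontal axis, evenly spaced), with 1 point for each embryo and a line through the stage means. HOXB1, HOXB2 and HOXB3 are at 1 TPM or more at stage 12 in all 3 embryos. HOXB5, at 0.437 to 2.92 TPM there, is also above its highest earlier value of 0.131 TPM. All 10 genes are up at stage 14, and all 10 stage means are lower at stage 40 than at stage 24.

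HOXB1, which in mice and chicks gives a hindbrain segment its identity, had 28.7, 36.6 and 57.8 TPM in the 3 stage 14 embryos. At stage 12 it had 7.87, 2.60 and 13.63 TPM, with no overlap between the 2 stages. The log2 change of stage 14 from stage 12 was 2.63 ± 0.81 (SE; adjusted p = 0.00665, edgeR), and the DESeq2 Wald test did not call it (adjusted p = 0.0535). At stages 16, 19 and 24 the level was 37.0 ± 7.56, 26.0 ± 12.7 and 28.0 ± 17.3 TPM (SD, n = 3 each). The highest stage mean of HOXB1 was thus at stage 14, at 41.0 ± 15.0 TPM. At stage 40 it had 0, 0.502 and 0.288 TPM, against 47.9, 19.6 and 16.6 TPM at stage 24. The 2 stages did not overlap. The log2 change was -6.99 ± 1.07 (adjusted p = 1.13e-06), -6.34 with replicate 1 of stage 24 left out, -7.58 with replicate 2 of stage 40 left out, and the stage 40 mean was 0.941% of the stage 24 mean.

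HOXB2, another hindbrain gene, had 21.7, 17.9 and 15.9 TPM at stage 14, against 8.20, 4.58 and 7.37 TPM at stage 12. All 3 stage 14 embryos lay above all 3 of stage 12, with a log2 change of 1.73 ± 0.49 (adjusted p = 0.00294). It was the steadiest member at stage 16, at 18.4, 19.4 and 20.2 TPM, and its highest mean was 24.2 ± 5.05 TPM at stage 19. At stage 40 it had 8.36, 7.47 and 6.63 TPM, against 26.7, 24.99 and 19.8 TPM at stage 24. It therefore fell but stayed well above 0 in every stage 40 embryo, with a log2 change of -1.92 ± 0.48 (adjusted p = 0.000676).

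HOXB3, active in the hindbrain and neck of other vertebrates, had 8.26, 7.30 and 5.04 TPM at stage 14, against 3.35, 2.33 and 2.66 TPM at stage 12. The embryos of the 2 stages did not overlap, and the log2 change was 1.57 ± 0.55 (adjusted p = 0.0163). That call was lost with library size as the only scaling (adjusted p = 0.0697) and without replicate 2 of stage 12 (0.0638) or replicate 1 of stage 14 (0.0585). HOXB3 peaked at stage 16, at 8.24 ± 1.56 TPM. At stage 40 it had 3.89, 3.06 and 4.61 TPM, against 9.69, 3.30 and 7.72 TPM at stage 24. These values overlapped, and the log2 change of -1.06 ± 0.54 did not pass the test (adjusted p = 0.0777), though it did in a fit of only these 2 stages (0.0182) and without replicate 2 of stage 24 (0.0371).

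HOXB4, known in mice and humans for its effect on blood stem cells as well as in the neck, was the lowest member at stages 12 to 24 apart from HOXB13 at stage 12. It had 3.77, 5.58 and 1.67 TPM at stage 14. At stage 12 it had 0.5002, 0 and 0.379 TPM, on 8 counts in all. Every stage 14 embryo was above those of stage 12, and the log2 change was 3.73 ± 0.81 (adjusted p = 0.000439), or 4.65 without replicate 1 of stage 12. The highest mean was 5.03 ± 1.80 TPM at stage 16. At stage 40 it had 2.36, 1.20 and 2.77 TPM, against 3.49, 2.29 and 5.02 TPM at stage 24. The 2 stages overlapped and the log2 change of -0.96 ± 0.66 did not pass the test (adjusted p = 0.203).

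HOXB5, which in mice acts in the neck, lung and gut nerve precursors, had 14.4, 17.04 and 9.16 TPM at stage 14, against 1.80, 0.437 and 2.92 TPM at stage 12. All stage 14 embryos were above stage 12, and the log2 change was 3.25 ± 0.39 (adjusted p = 1.07e-08). It then had 13.9 ± 1.83 TPM at stage 16 and 14.1 ± 2.49 TPM at stage 19, and 9.90 ± 2.78 TPM at stage 24. At stage 40 it had 2.43, 2.54 and 1.84 TPM, against 13.1, 8.32 and 8.27 TPM at stage 24. Each stage 40 embryo was below each stage 24 embryo, with a log2 change of -2.37 ± 0.37 (adjusted p = 8.76e-07).

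HOXB6, HOXB7 and HOXB8 are trunk members, and HOXB8 is known in mice for roles in the spinal cord and in blood cells. HOXB6 had 32.8, 54.8 and 22.2 TPM at stage 14, against 0.416, 0 and 1.30 TPM at stage 12. HOXB7 had 45.6, 56.3 and 33.8 TPM at stage 14, against 1.51, 0.173 and 1.37 TPM at stage 12. HOXB8 had 26.7, 31.8 and 21.4 TPM at stage 14, against 0.561, 0.0599 and 1.17 TPM at stage 12. In all 3 genes, as in HOXB4 and HOXB5, replicate 2 was the highest embryo of stage 14 and the lowest of stage 12. None of the 3 genes overlapped between these stages. Their log2 changes were 6.35 ± 0.83 for HOXB6 (adjusted p = 3.36e-07), 5.69 ± 0.65 for HOXB7 (2.04e-08) and 5.80 ± 0.44 for HOXB8 (1.74e-13). Without replicate 3 of stage 12 those of HOXB6 and HOXB8 were 7.31 and 6.51.

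HOXB9, which patterns the rib cage in mice together with its paralogs, had 52.8, 39.3 and 26.6 TPM at stage 14. At stage 12 it had 1.34, 0 and 0.9495 TPM, on 8 counts in all, and no embryo overlapped. The log2 change was 5.81 ± 0.93 (adjusted p = 1.43e-05), or 6.75 without replicate 1 of stage 12. HOXB13, which limits tail growth in mice and is expressed in the regenerating tail of axolotls, had 9.31, 13.5 and 16.3 TPM at stage 14, on 129 counts. At stage 12 it had 0, 0 and 0.539 TPM, on 2 counts in all. The ratio of its counts, scaled for library size, was 126 with a 95% counting interval of 34.3 to 1055, and the fitted log2 change was 6.74 ± 0.91 (adjusted p = 2.06e-07). It was 5.96 without replicate 1 of stage 12 and 9.87 without replicate 3, the library that held both stage 12 counts.

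All 10 HOXB genes rose between stages 12 and 14, where 27.4% of all genes tested were called higher at stage 14 and 24.9% lower. The median log2 change of the 10 genes was 4.71, beside 0 over all genes tested. The share of all genes whose embryos did not overlap between these 2 stages is not given, so lack of overlap is only a description. Between stages 12 and 8, 7 HOXB genes were called higher at stage 12 (HOXB1, HOXB2, HOXB3, HOXB5, HOXB7, HOXB8 and HOXB9), where 31% of all genes were, and 0 lower, where 31.5% of all genes were, with a median log2 change of 4.63 beside 0 over all genes. HOXB4, HOXB6 and HOXB13 had adjusted p values of 0.189, 0.103 and 0.455 there, and HOXB6 was called without replicate 2 of stage 12 (0.0427). Of the stage 8 libraries, replicate 1 held most of the HOXB counts. Without it HOXB4 was called as well (adjusted p = 0.0146), and the log2 changes were 9.13 in place of 4.91 for HOXB1, 6.46 in place of 5.57 for HOXB2, 7.86 in place of 5.48 for HOXB3 and 7.79 in place of 4.42 for HOXB7. Without replicate 3 of stage 12 that of HOXB8 was 1.66 in place of 2.36. The call of HOXB9 rested on 8 counts at stage 12, at least 4.01-fold above the limit of 3 counts that the 0 counts of stage 8 allow, and it was lost without replicate 1 of stage 12 (adjusted p = 0.124), without replicate 1 of stage 8 (0.0591) and with library size alone (0.0509). Between the neighbouring stages 12 and 11, HOXB1, HOXB2, HOXB3, HOXB4, HOXB5, HOXB7 and HOXB8 were called higher at stage 12, against 16.3% of all genes. Without replicate 2 of stage 11 the calls of HOXB1 and HOXB4 were lost there (adjusted p = 0.157 and 0.176), and that of HOXB4 also without replicate 3 of stage 11 (0.0926) or replicate 1 of stage 12 (0.139). In a fit of only stages 12 and 11, 4 genes were called. HOXB7 had 64 counts at stage 12 and 0 in the 2 libraries of stage 11, which puts it at least 19.9-fold higher if only counting error is considered. Of its stage 12 counts, replicate 1 held 42.7 and replicate 2 held 3, and at stages 9 and 10 it had 10 and 7.57 counts.

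**Figure D2:**
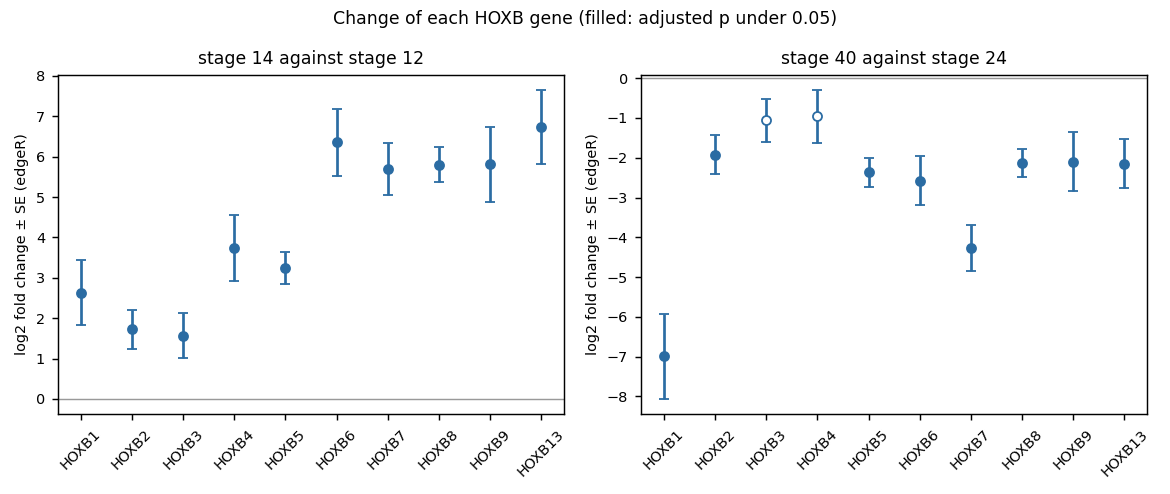
Log2 fold change ± SE of each HOXB gene (edgeR) at stage 14 against stage 12 (left) and stage 40 against stage 24 (right). Filled points passed an adjusted p of 0.05. On the left all 10 are filled and above 0, from 1.57 for HOXB3 to 6.74 for HOXB13, and on the right 8 are filled and below 0, with HOXB1 at -6.99 and HOXB3 and HOXB4 open.

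How much of the neurula level was already present at stage 12 differed along the cluster. The stage 12 mean was 19.6% of the stage 14 mean for HOXB1, 36.3% for HOXB2 and 40.5% for HOXB3. For the middle members it was 7.97% for HOXB4 and 12.7% for HOXB5. From HOXB6 onward it lay between 1.38% (HOXB13) and 2.25% (HOXB7). The share and the paralog number had a Spearman rho of -0.867 over the 10 genes, and with each stage 12 embryo alone rho was -0.842, -0.713 and -0.818. HOXB4, HOXB6, HOXB9 and HOXB13 held only 7.62, 11.74, 8 and 2 counts over the 3 stage 12 embryos. All of these were at 0 in replicate 2, so their order among themselves is near the floor. HOXB1 had a lower share than HOXB2 and HOXB3 in each of the 3 stage 12 embryos.

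**Figure D3:**
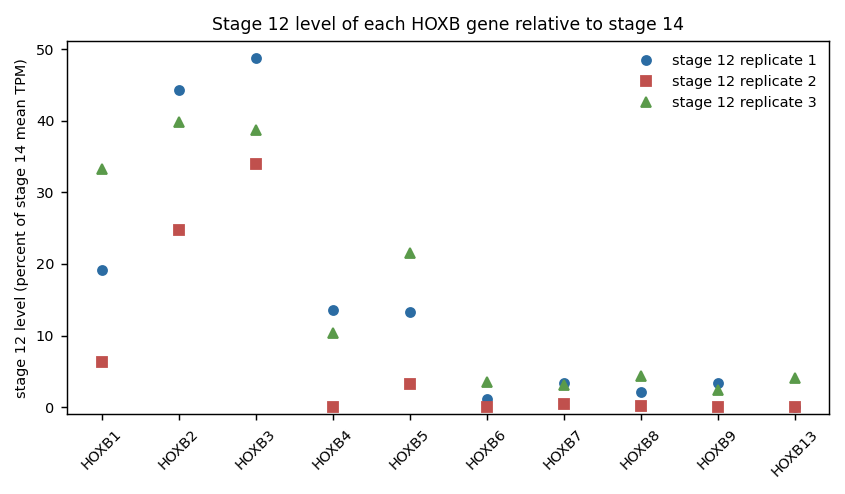
Level of each HOXB gene in each stage 12 embryo, in percent of its stage 14 mean (vertical axis), by gene (horizontal axis). In all 3 embryos HOXB2 and HOXB3 are highest, HOXB1 lies below both, and HOXB6, HOXB7, HOXB8, HOXB9 and HOXB13 stay near the bottom of the axis.

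The makeup of the summed HOXB level changed accordingly. The 10 genes summed to 244, 280 and 210 TPM at stage 14, against 25.5, 10.2 and 32.3 TPM at stage 12. HOXB1, HOXB2 and HOXB3 made up 24.0%, 22.1% and 37.5% of the sum in the stage 14 embryos, against 76.0%, 93.4% and 73.3% in the stage 12 embryos. HOXB6 to HOXB13 made up 68.5%, 69.8% and 57.3% at stage 14, against 15.0%, 2.29% and 16.5% at stage 12. The 2 stages did not overlap in either share. The size of each share also rests on the gene lengths behind the TPM, which are not given.

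Stage 12 replicate 2 was the lowest of its stage in 9 of the 10 HOXB genes. Along the line from the stage 11 to the stage 14 means over 2467 genes outside the HOX clusters that differed by a log2 of 2 or more, it also lay nearest to stage 11, at 0.431 of the way, against 0.524 for replicate 1 and 0.548 for replicate 3. Without it the onset rho was 0.661, as HOXB5 and HOXB7 then had their onset at stage 12. The part that this embryo's position has in the onset order was not tested. Depth also bears on onset: 1 TPM was worth a median of 2.51 counts for HOXB9, the shortest by this measure, and 69.6 counts for HOXB5, which is 27.8 times as many. HOXB4, HOXB6, HOXB9 and HOXB13, with 2 to 12 counts each at stage 12, all had few counts per TPM, and so did HOXB1, at 5.28. Counts per TPM and paralog number had a rho of -0.273. The part of depth in the onset order was not tested.

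Other definitions of onset gave other orders. At 0.5 TPM in every library the onsets and rho were unchanged. With a stage mean of 1 TPM, rho was 0.661, with HOXB5 and HOXB7 at stage 12. With 10 counts in every library it was 0.603, with HOXB5 at stage 12 and HOXB4 at stage 16. At 2 TPM it was 0.583, since HOXB4 came in at stage 16. Taking the first stage called higher than stage 8 gave 0.266, with HOXB1, HOXB2, HOXB3, HOXB5, HOXB7, HOXB8 and HOXB9 at stage 12 and HOXB4, HOXB6 and HOXB13 at stage 14. At 25% of the highest stage mean it was 0.522, with HOXB2 and HOXB3 at stage 12 and HOXB1 at stage 14. At 5 TPM in every library HOXB4 had no onset and the other 9, HOXB1, HOXB2 and HOXB3 included, had theirs at stage 14. A level of 50% of the highest stage mean was reached by all 10 genes at stage 14, so that measure held no order at all.

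From stage 14 to stage 24 no HOXB change passed the test. Between stages 24 and 14, 49% of all genes were called, 27.2% lower at stage 24, and 0 HOXB genes, by edgeR and by the DESeq2 Wald test, and 0 had an unadjusted edgeR p under 0.05. Between stages 16 and 14, 19 and 16, and 24 and 19, 0 HOXB genes were called by either tool, and 0 had an unadjusted p under 0.05, where 0.443%, 3.11% and 24.1% of all genes were called. The share of all genes with an unadjusted p under 0.05 is not given for these comparisons. The largest fitted log2 change of stage 24 from stage 14 was -1.28 ± 0.71, of HOXB9 (adjusted p = 0.142). Stage means peaked at stage 14 for HOXB1 and HOXB9, at stage 16 for HOXB3 and HOXB4, at stage 24 for HOXB6 and at stage 19 for the other 5. Since no step between these stages passed the test, these peaks are not separated from their neighbours.

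**Figure D4:**
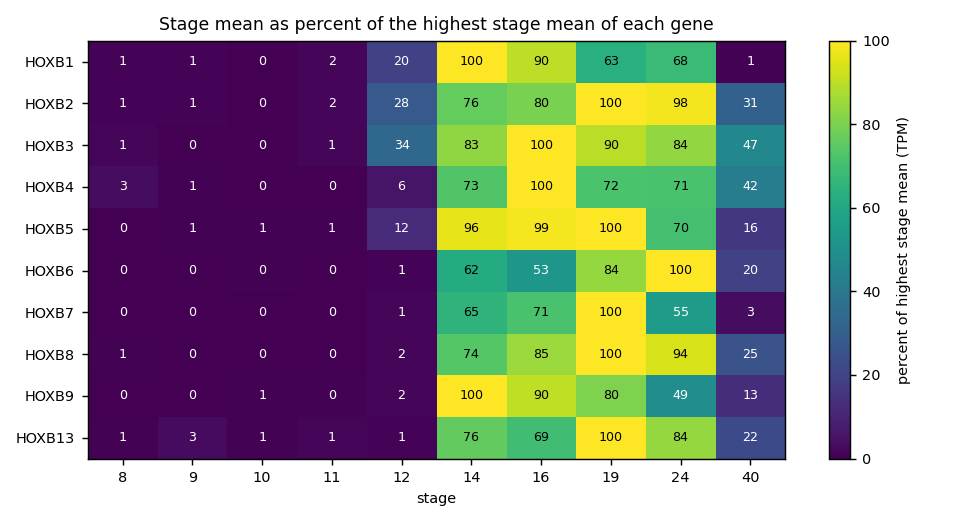
Stage mean of each HOXB gene in percent of its own highest stage mean (colour and printed number), by stage from 8 to 40 (horizontal) and by gene (vertical). Stages 8 to 11 are at 3% or less in every gene, HOXB1, HOXB2 and HOXB3 stand at 20%, 28% and 34% at stage 12, and stage 40 ranges from 1% for HOXB1 to 47% for HOXB3.

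Embryos differed widely at stage 24. HOXB7 had 80.0, 19.0 and 16.7 TPM there, HOXB6 97.7, 26.8 and 53.7 TPM, and HOXB9 27.1, 2.95 and 28.4 TPM. The summed HOXB level was 376, 139 and 199 TPM. Replicate 1 was the highest of the stage in 8 of the 10 genes, and replicate 2 the lowest in 6. Along the line from the stage 19 to the stage 40 means over 2988 genes outside the HOX clusters, the 3 embryos lay at 0.108, 0.144 and 0.247, so replicate 1 was nearest to stage 19. Without it HOXB7 was called lower at stage 24 than at stage 14 (log2 change -1.56, adjusted p = 0.0125). The part of these positions in the spread of HOXB levels was not tested.

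Levels in TPM differed between the members, but a comparison between genes rests on gene lengths that are not given. The order by reads was another: over the 3 stage 14 embryos HOXB9 held 226 counts, HOXB5 2239 and HOXB8 2862. At stage 14 HOXB7 had the highest mean, 45.2 ± 11.2 TPM, followed by HOXB1 at 41.0 ± 15.0, HOXB9 at 39.6 ± 13.1, HOXB6 at 36.6 ± 16.6 and HOXB8 at 26.6 ± 5.19 TPM. Each of these 5 overlapped its neighbour in the order, while HOXB7, at 33.8 to 56.3 TPM, lay wholly above HOXB8, at 21.4 to 31.8 TPM. HOXB2 at 18.5 ± 2.96, HOXB5 at 13.5 ± 4.01 and HOXB13 at 13.03 ± 3.52 TPM came next, also overlapping. HOXB3 at 6.87 ± 1.66 TPM lay below HOXB13 with no overlap, and HOXB4 at 3.67 ± 1.95 TPM was last. HOXB3 and HOXB4 were the lowest 2 of the 10 at each of stages 14, 16, 19 and 24. The highest stage mean and the paralog number had a rho of 0.188.

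By stage 40 most of the cluster had fallen. Of the 10 genes, 8 were called lower at stage 40 than at stage 24, where 30.9% of all genes tested were, and 0 were called higher, where 37.7% of all genes were. The median log2 change was -2.14, beside 0.12 over all genes. The summed level was 48.7, 51.6 and 44.7 TPM at stage 40, below all 3 stage 24 embryos. HOXB7 fell most after HOXB1: it had 2.33, 2.81 and 2.05 TPM at stage 40, 6.22% of its stage 24 mean, with a log2 change of -4.26 ± 0.58 (adjusted p = 2.35e-07). Without replicate 1 of stage 24 that change was -3.13. The stage 40 embryos of HOXB7 agreed closely, while those of stage 24 did not.

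HOXB6 had 13.2, 13.4 and 8.66 TPM at stage 40 and was the highest member there in TPM, though it overlapped HOXB8. Its log2 change from stage 24 was -2.57 ± 0.61 (adjusted p = 0.000604), and the DESeq2 Wald test did not call it (0.0926). Without replicate 1 of stage 24 it was -1.98. HOXB8 had 10.2, 8.75 and 8.60 TPM at stage 40, against 48.1, 24.2 and 29.7 TPM at stage 24. Its 2 groups did not overlap, with a log2 change of -2.13 ± 0.35 (adjusted p = 1.69e-06). HOXB13 had 4.30, 4.00 and 3.19 TPM at stage 40, against 22.8, 7.17 and 13.4 TPM at stage 24, with a log2 change of -2.15 ± 0.61 (adjusted p = 0.00267). HOXB9 had 1.66, 7.87 and 6.06 TPM at stage 40, which overlapped the 27.1, 2.95 and 28.4 TPM of stage 24. Its log2 change of -2.10 ± 0.73 passed the test (adjusted p = 0.0148), but not by the DESeq2 Wald test (0.0570), nor without replicate 1 (0.0609) or 3 (0.0530) of stage 24, nor without replicate 1 of stage 40 (0.0723). The level left at stage 40, as a percent of stage 24, had a rho of -0.079 with the paralog number and was highest for HOXB4 (58.6%) and HOXB3 (55.9%), the 2 genes that were not called.

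Of the other clusters, the onset rule placed 2 of 11 HOXA genes, 1 of 9 HOXC genes and 2 of 8 HOXD genes at or before stage 12. At stage 14 were 6 HOXA, 4 HOXC and 4 HOXD genes, and later 3 HOXA, 4 HOXC and 2 HOXD genes, where the HOXB cluster had 0. The onset rho was 0.810 for HOXA, 0.896 for HOXC and 0.309 for HOXD. HOXC4 and HOXD1, both at onset stage 9, already held 1.79 to 1.88 TPM and 7.65 to 11.9 TPM at stage 8, so their onset is set by where the rule starts, and the HOXC and HOXD rho include them. HOXD13, at onset stage 9 by this rule, had means of only 0.529 TPM at stage 14 and 0.834 TPM at stage 12, below 1 TPM at both. Its early onset lowers the HOXD rho: among the other HOXD genes no onset was earlier than that of a lower-numbered one. HOXB13 stood at 13.03 TPM at stage 14, where HOXA13 had 0.0725 TPM and HOXC13 was listed at 0 TPM. HOXA13 and HOXC13 reached 4.76 ± 0.85 and 3.88 ± 0.32 TPM at stage 40, their onset stage. Whether HOXB13 differed in time from these paralogs was not tested.

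**Figure D5:**
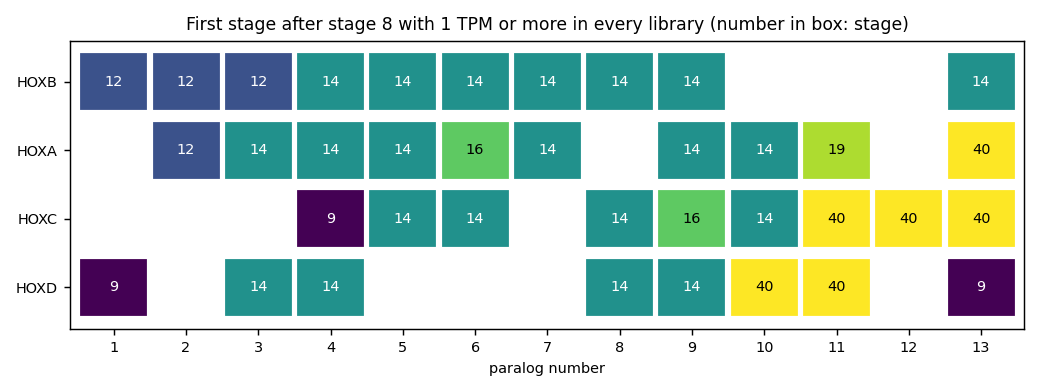
Onset stage (number and colour of each box) of HOX genes reported here from the 4 clusters (vertical) by paralog number (horizontal), where onset is the first stage after stage 8 with 1 TPM or more in every library. HOXB13 has its onset at stage 14, against stage 40 for HOXA13 and HOXC13 and stage 9 for HOXD13.

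At stage 14 against stage 12, 8 of 11 HOXA genes tested were called higher, 6 of 9 HOXC genes and 4 of 6 HOXD genes, with 0 called lower, and 6 to 7 HOXA genes were called higher with a library of either stage left out. HOXA9 had 24.9 ± 4.03 TPM at stage 14, against 0.513 ± 0.290 TPM at stage 12. HOXC6 had 4.73 ± 1.45 TPM at stage 14 and was listed at 0 in all 3 stage 12 embryos. At stage 40 against stage 24, 4 HOXA, 2 HOXC and 5 HOXD genes were called lower, and 1, 1 and 0 higher. With a library left out, 3 to 5 HOXD genes were called lower (3 without replicate 1 of stage 24 or replicate 3 of stage 40), 0 to 1 HOXD genes higher (1 without replicate 3 of stage 24), 0 to 1 HOXA genes higher (0 without that same library) and 1 to 2 HOXC genes higher (2 without replicate 1 of stage 24). HOXD1, a paralog of HOXB1, had 2.26 ± 0.559 TPM at stage 40, against 54.3 ± 11.3 TPM at stage 24 (log2 change -4.82 ± 0.66, adjusted p = 6.33e-08). The shares of all genes called, beside which these counts and those of the lists that follow stand, were 27.4% higher and 24.9% lower at stage 14 against 12, and 37.7% higher and 30.9% lower at stage 40 against 24.

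Of the retinoic acid pathway, 19 of 20 listed genes were tested, and 10 were called higher and 3 lower at stage 14 than at stage 12, where 27.4% and 24.9% of all genes were. RXRA, a receptor partner, had 8.84 ± 2.89 TPM at stage 14, against 0.524 ± 0.158 TPM at stage 12 (log2 change 4.30 ± 0.32, adjusted p = 1.72e-13). CYP26C1, an enzyme that breaks retinoic acid down, had 27.5 ± 11.1 TPM at stage 14, against 1.502 ± 0.838 TPM at stage 12 (4.50 ± 0.49, 1.75e-09). Among the 3 called lower was ALDH1A2, which makes retinoic acid, at 110 ± 9.8 TPM at stage 14, against 284 ± 6.0 TPM at stage 12, and with DESeq2 size factors 1 gene rather than 3 was called lower, and 2 with any library of either stage left out. At stage 40 against stage 24, 7 were called higher and 9 lower, where 37.7% and 30.9% of all genes were: RBP4, a retinol carrier of blood plasma, rose by a log2 of 6.58 ± 0.37 (adjusted p = 1.07e-17), and RARG, a receptor, changed by -2.02 ± 0.22 (3.03e-10).

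Of the TALE partners, 7 of 9 listed were tested, and 3 were called higher at stage 14 than at stage 12 and 1 lower, or 0 lower with DESeq2 size factors and in 4 of the 6 fits with a library left out. PBX3 had 15.4 ± 2.01 TPM at stage 14, against 1.34 ± 0.549 TPM at stage 12, and MEIS1 had 49.3 ± 6.40 TPM, against 13.7 ± 7.81 TPM. Their log2 changes were 3.75 ± 0.54 and 2.12 ± 0.35 (adjusted p = 2.81e-07 and 4.0e-06). At stage 40 against stage 24, 1 was called higher and 4 lower, or 1 lower with library size alone. PBX2 had 35.0 ± 3.88 TPM at stage 40, against 57.4 ± 4.58 TPM at stage 24 (log2 change -0.95 ± 0.11, adjusted p = 1.77e-09).

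Of the listed regulators of HOX clusters and axial identity, 18 of 22 were tested, and 5 were called higher and 5 lower at stage 14 than at stage 12, where 27.4% and 24.9% of all genes were. With a library left out 2 to 5 were called lower: 2 without replicate 2 or replicate 3 of stage 14, and 3 without replicate 1 or replicate 2 of stage 12. GMNN, a replication inhibitor whose product also binds HOX proteins, had 76.4 ± 15.4 TPM at stage 14, against 197 ± 15.5 TPM at stage 12 (log2 change -1.08 ± 0.15, adjusted p = 9.09e-08). CDX2 was high at both stages, at 247 ± 40 TPM at stage 14 and 272 ± 55 TPM at stage 12, and did not pass the test (adjusted p = 0.835). At stage 40 against stage 24, 15 of the 18 were called lower and 0 higher, where 30.9% and 37.7% of all genes were. EZH2, the Polycomb enzyme that methylates histone H3, had 47.7 ± 1.94 TPM at stage 40, against 102 ± 6.12 TPM at stage 24. WNT8A, a posterior signal, had 0.172 ± 0.033 TPM at stage 40, against 6.49 ± 1.03 TPM at stage 24, and CDX4 had 1.81 ± 0.16 TPM, against 59.7 ± 31 TPM.

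Of 17 genes that flank the cluster, listed from the human genome, 13 were tested, and 4 were called higher and 1 lower at stage 14 than at stage 12, where 27.4% and 24.9% of all genes were. With library size alone it was 2 higher and 3 lower, and without replicate 3 of stage 14 there were 2 lower. The immediate neighbours TTLL6 and SKAP1 had log2 changes of -0.17 ± 0.18 and 0.40 ± 0.20 (adjusted p = 0.455 and 0.0943). TTLL6, a tubulin-modifying enzyme, had 3.42 TPM at stage 14 and 4.65 TPM at stage 12, and SKAP1, an adaptor protein of T cells, 8.55 TPM at stage 14 and 7.82 TPM at stage 12. NFE2L1, a transcription factor, and IGF2BP1, an RNA-binding protein, rose by log2 changes of 0.90 ± 0.17 and 1.36 ± 0.26 (adjusted p = 2.32e-05 and 2.79e-05). At stage 40 against stage 24, 3 flanking genes were called higher and 7 lower, or 4 lower with library size alone, with CALCOCO2 at 1.21 ± 0.16 and SNX11 at -1.59 ± 0.21.

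Marker genes of tissues in which HOX genes act were also followed. Their sums do not show that a tissue was present: neural tube markers already summed to 312 to 401 TPM at stage 8, before a neural tube forms, and blood markers to 135 to 199 TPM. Of 12 neural tube markers tested, 6 were called higher and 0 lower at stage 14 than at stage 12, among them NCAM1 (log2 change 3.83 ± 0.30) and OLIG2 (2.15 ± 0.32). Their summed level was 271 to 340 TPM at stage 14 and 294 to 372 TPM at stage 12, and 0 of 12 were at 0. Of 9 somite markers tested, 4 were called higher and 0 lower, TCF15 (3.70 ± 0.62) and MEOX1 (2.20 ± 0.43) among them, and the summed level of the 10 in the table was 262 to 342 TPM at stage 14 and 247 to 311 TPM at stage 12, with MEOX2 at 0 at both. Of 5 blood markers tested, TAL1 (6.22 ± 0.54) and LMO2 (4.01 ± 0.73) were called higher and 0 lower, and their sum was 29.2 to 36.3 TPM at stage 14 and 1.60 to 2.38 TPM at stage 12. The part of these tissues in the HOXB change was not tested.

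Between stages 24 and 40 most of the somite markers tested moved with the HOXB genes. MEOX2 went the other way, with 2.20 ± 0.335 TPM at stage 40, against 0.104 ± 0.181 TPM at stage 24. Of 9 tested, 7 were called lower and 0 higher at stage 40. The sum of the 10 in the table was 65.1 to 84.8 TPM at stage 40, against 273 to 531 TPM at stage 24. RIPPLY1 and TBX6, which mark forming somites and their precursors, had log2 changes of -4.98 ± 0.43 and -6.35 ± 0.77. Of the neural tube markers 3 were called higher and 6 lower, with TUBB3, a tubulin of neurons, at 2.51 ± 0.40 and SOX2, a factor of neural precursors, at -2.27 ± 0.18, and their sum was 256 to 330 TPM at stage 40 and 236 to 374 TPM at stage 24. Blood markers summed to 854 to 1146 TPM at stage 40, against 88.2 to 124.9 TPM at stage 24, mostly from the globin HBE1 at 928 ± 131 TPM and 7.45 ± 6.62 TPM, and 2 were called higher and 2 lower. No listed marker of the 3 tissues was at 0 at either stage. The part of these changes in the fall of the HOXB genes was not tested.

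Among themselves the HOXB genes followed much the same course. Over the 17 stage means of log2(TPM + 1), Pearson r between pairs ranged from 0.871 (HOXB1 and HOXB6) to 0.998 (HOXB6 and HOXB8), and the 3 lowest of the 45 pairs all held HOXB1. Outside the HOX clusters, of 12695 named genes with a highest stage mean of 5 TPM or more, the 6 most like the mean HOXB profile were GATA5 (r = 0.998), CYP26C1 (0.998), PCDH19 (0.996), FAM150B (0.996), GAS2L2 (0.995) and LRRC18 (0.994). GATA5, a factor of heart and endoderm, had stage means of 0.187, 2.18, 38.0, 47.3 and 6.75 TPM at stages 11, 12, 14, 24 and 40. PCDH19, a cell adhesion protein, had 0.115, 0.533, 5.98, 6.73 and 2.75 TPM at these stages. These points share their libraries, and a large part of each profile is a rise between stages 11 and 14. With log2(TPM + 0.1), 3 of the 6 genes stayed among the first 6. The gene most like each member was LUC7L2 for HOXB1 (r = 0.988), MANEAL for HOXB2 (0.995), ZNF750 for HOXB3 (0.996), PCDH19 for HOXB4 (0.994) and HOXB8 (0.999), FAM150B for HOXB5 (0.998), BSPRY for HOXB6 (0.996) and HOXB13 (0.995), GAS2L2 for HOXB7 (0.994) and C9orf91 for HOXB9 (0.998). Pearson r leaves out the size of a change. LUC7L2 had 303, 523, 765, 703 and 340 TPM at stages 11, 12, 14, 24 and 40. It was thus abundant at all of them, while HOXB1 was at 0.754 TPM at stage 11 and 0.263 TPM at stage 40.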

How the data were processed

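Poly(A) RNA of single embryos (49 libraries) was analysed. The authors deposited expected counts per gene, unscaled between libraries, and TPM. The submitters' processing notes name RSEM 1.1.6 and Bowtie 0.12.1, without their roles. Reads were paired and 101 bases long, per the labels. The genome or transcript reference is not given in these sources. Expected counts summed to between 12.0 and 44.9 M in poly(A) libraries, and to between 17.4 and 25.5 M in those of total RNA. Counts of 47 pairs of poly(A) libraries of a stage differed by a chi-square of at least 7.81 per degree of freedom, so none was treated as deposited more than once. Columns outside the labels numbered 0.

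Rounded counts went into edgeR 4.0.16, run in R 4.3.3 (filterByExpr, TMM scaling, all 17 stages in 1 quasi-likelihood fit), with Benjamini-Hochberg adjustment over the 14437 genes tested and a threshold of 0.05. The SE is the log2 change over the square root of F. Folds against 0 counts use a floor of 3 counts over the group, and intervals and floors cover counting error only. TPM are mean ± SD over embryos. The labels call each sample a single embryo, so p-values rest on the spread between embryos of the same stage. That spread was estimated from all 17 stages together, not from the compared stages alone. Whether the embryos of a stage came from the same clutch of eggs is not stated in the labels. Spread between clutches may therefore not be covered.

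Alternatives were the Wald test of DESeq2 1.42.0, scaling by DESeq2 size factors or by library size alone, no filter, only the 2 stages compared, the replicate number as a block, each library left out, and other onset rules. Every HOXB gene is named, plus the 6 genes with the most similar profile and 1 for each member. From each list the 2 genes with the smallest adjusted p at stage 14 against 12 and at stage 40 against 24 were picked. Values for these comparisons are not given for every pick. In the other HOX clusters they are given only for HOXA9 and HOXC6 (stage 14 against 12) and HOXD1 (stage 40 against 24). ALDH1A2, CDX2, CDX4, TTLL6 and SKAP1 and the paralogs of group 13 were named after their values were seen. The results of 3 listed genes are not reported here. The members and lists were chosen with earlier results of these data known.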

Additional observations from a re-analysis of the deposited data

Results flagged for a closer look

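The 5 total RNA libraries of stages 1 and 2 take no part in the comparisons, and a few HOXB reads were seen in them. The highest estimated count in any of these libraries was 4 for HOXB1, 4 for HOXB3 and 5 for HOXB8, each above the limit of 3 counts that a count of 0 allows. At these counts HOXB1 stood at 0.692 TPM, HOXB3 at 0.129 TPM and HOXB8 at 0.116 TPM. No HOXB gene reached 1 TPM in these libraries.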

How the results depend on the processing

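HOXB log2 changes resting on 5 or more counts were followed at stages 12 against 8, 12 against 11, 14 against 12, 24 against 14 and 40 against 24. Signs in the other comparisons are not given. Each change followed kept its sign in all settings except some at stage 24 against 14, where 0 were called. There HOXB13 (-0.08) changed sign to 0.12 by the DESeq2 Wald test and by DESeq2 size factors, 0.22 with library size alone and 0.042 with only the 2 stages, and HOXB3 (-0.23) to 0.083 and HOXB4 (-0.30) to 0.0064 with library size alone. With a library left out the ranges were -0.60 to 0.22 for HOXB13, -0.58 to 0.079 for HOXB3, -0.62 to 0.067 for HOXB4, -0.12 to 0.83 for HOXB6 and -0.22 to 0.30 for HOXB8. No HOXB gene was called higher at stage 40 than 24 in any setting. With each library left out in turn, 6 to 8 HOXB genes were called higher at stage 12 than 8, 5 to 7 at stage 12 than 11, 9 to 10 at stage 14 than 12, and 7 to 9 lower at stage 40 than 24. Without replicate 1 of stage 24, 1 gene was called lower at stage 24 than 14 and 1 at stage 24 than 19 (0 to 1 over these settings). In a fit of only stages 12 and 11, 4 were called higher. Onset rho was 0.583 at 2 TPM, 0.661 with a stage mean, 0.603 with 10 counts, 0.266 by the test against stage 8, 0.497 by that test with library size alone, and 0.661 to 0.809 with a library left out. At 5 TPM HOXB4 had no onset and the other genes shared stage 14, so no rho exists. With 75% in place of 50% of the maximum, 6 genes reached it at stage 14, and 9 to 10 reached 50% there with a library left out. The 6 most similar genes held 3 of their number with log2(TPM + 0.1). Without replicate 1 of stage 8, which held most of that stage's HOXB counts, the log2 changes of stage 12 from stage 8 were 9.13 for HOXB1, 7.86 for HOXB3 and 7.79 for HOXB7, and HOXB4 was also called (4.82, adjusted p = 0.0146). Library size alone moved the median of all genes by -0.98 at stage 12 against 8, -0.27 at 14 against 12, 0.30 at 24 against 14 and 0.42 at 40 against 24, and DESeq2 size factors by 0.16 and 0.20 at 14 against 12 and 24 against 14. Over all genes, library size alone gave 1383 higher and 8193 lower at stage 12 against 8 (4471 and 4547 as reported), 2333 lower at 24 against 14 (3923) and 2775 lower at 40 against 24 (4460). Replicate numbers were not taken to pair the embryos: same-numbered deviations correlated at -0.020 to -0.002 between stages 14 and 12. Between stages 12 and 11 the 2 pairs correlated at 0.136 and 0.195, and between stages 11 and 10 at -0.495 and 0.681. With the replicate number as a block 7 HOXB genes were called higher at stage 12 than 8 and 10 at stage 14 than 12, and 8 lower at stage 40 than 24. Of all calls, the share called higher by size factors of DESeq2 was 63.4% at stage 14 against 12 (52.5% as reported), 57.9% at 24 against 14 (44.5%), 36.7% at 9 against 8 (25.4%), 68.3% at 16 against 14 (43.8%), 73.3% at 19 against 16 (40.3%) and 57.8% at 24 against 19 (45.7%). By library size alone it was 38.0% at 14 against 12, 64.8% at 24 against 14, 75% at 19 against 16, 74.99% at 24 against 19, 71.1% at 40 against 24 (55.0%), 14.4% at 12 against 8 (49.6%) and 11.1% at 12 against 11 (43.8%), with 0 calls at 16 against 14. The cause of these shifts was not tested.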
